A study of Mus musculus with 24 samples.

Results

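The subject here is 6 genes of the Siglec family, the sialic acid-binding immunoglobulin-like lectins, in macrophages sorted from mouse lung: Siglecf, Siglece, Siglec1, Cd33, Cd22 and Siglecg. They were taken by name from a table of read counts over 43430 mouse genes, and all 6 were found there and had enough reads to be tested. Siglecf encodes Siglec F, the surface protein on which the cells had been sorted, so its values stand apart from those of the other 5.

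Siglecs are receptors that bind sialic acids, the sugars that cap the glycans of cell surfaces. Most of them carry tyrosine motifs in their cytoplasmic tail that, once phosphorylated, recruit the phosphatases encoded by Ptpn6 and Ptpn11 and dampen signals from neighbouring receptors. In the lung Siglec F is the customary surface marker of resident alveolar macrophages and is also found on eosinophils, while macrophages that have arisen from monocytes are known to carry less of it. Siglec1, or sialoadhesin, has a long extracellular part and no inhibitory motif and serves as an adhesion receptor of macrophages; Siglece is carried by neutrophils, monocytes and macrophages; Cd22 and Siglecg are best known as restraints on the B cell receptor.

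RNA was sequenced from lung macrophages of C57BL/6J mice in 6 groups of 4 libraries, 24 in all, none of which carried a named transgene or deletion. Young mice were 8 to 12 weeks old and old mice over 18 months by the sample labels, where the series text gives 2 and 18 months. At each age Siglec F-high cells came from naive mice and from mice 28 days after asbestos, a mineral fibre used to provoke lung fibrosis, and Siglec F-low cells came from the asbestos-exposed mice alone. The series text speaks of tissue-resident and monocyte-derived alveolar macrophages, whereas the labels name the sorts by Siglec F, and those names are used here. Naive mice were the controls, and none of the 24 libraries is labelled as sham-treated, so asbestos is set against naive mice alone. The labels do not say that the libraries of a group came from separate animals, so p-values judge differences against the spread between these libraries, which may in part be technical.

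Libraries held 13423080 to 18124526 counts, except 2 that stood apart. Replicate 3 of the young asbestos Siglec F-high group had 11889517 counts on 12528 genes, against 17069 to 18820 genes in the 22 others, and correlated with its group at 0.865, against 0.986 to 0.993. Replicate 3 of the old asbestos Siglec F-high group had 3894699 counts, of which 35.6% lay on the single gene Gm42418 (0.136% to 0.357% in the 22 others), and correlated with its group at 0.900. Every change below was therefore fitted on 24 libraries and again on 22. In both fits all groups share the estimate of spread, so with 24 libraries those 2 also enter the errors of comparisons between other groups. Between ages in naive cells the median standard error (SE) over all genes was 0.236 with 24 and 0.127 with 22 libraries. All 14 alveolar macrophage markers averaged over 10 CPM (a gene's count scaled to a fixed library total, with library sizes adjusted by edgeR's TMM method). Their sum ran from 28636 to 33652 CPM in young asbestos Siglec F-high and from 41267 to 53535 CPM in young Siglec F-low libraries, and from 20440.4 to 45119.8 and from 57170.0 to 71649.6 CPM in the old ones. In naive libraries the sum ran from 19290 to 24576 CPM in young and from 20972 to 23795 CPM in old mice. The most abundant genes weigh most in such a sum, and the called markers went both ways between the sorts, as given with Siglecf. The defining eosinophil genes were at or near 0, with a sum of 5 genes of at most 5.71 CPM, and neutrophil genes summed to 30.5 to 97.0 CPM.

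4 of the genes lie together on mouse chromosome 7 (positions from GENCODE M21 on GRCm38). Siglecf (ENSMUSG00000039013) spans chr7:43351341-43359531 on the plus strand and Siglecg (ENSMUSG00000030468) chr7:43408204-43418358 on the plus strand, with Cd33 (ENSMUSG00000004609) at chr7:43524216-43544428 and Siglece (ENSMUSG00000030474) at chr7:43651070-43660161, both on the minus strand. Cd22 (ENSMUSG00000030577) lies elsewhere on that chromosome, at chr7:30865402-30880342 on the minus strand, and Siglec1 (ENSMUSG00000027322) at chr2:131069220-131086765 on the minus strand. The 6 could be told apart by reads: of all 50-base stretches in a gene's transcripts, another gene's transcripts held none of those of Siglece, 0.206% of those of Siglecf, 0.458% of Cd33, 1.33% of Siglec1, 4.64% of Siglecg and 7.84% of Cd22. Cd22 overlaps the antisense gene Gm29439 over 479 exon bases; the library kit does not mark strand and the counting setting is not given in the sources used here, so reads of this overlap cannot be told apart, but Gm29439 held 19 counts in all against 63251 for Cd22.

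Compared per length, the mean share of Siglecf was the largest of the 6 in the Siglec F-high groups, and that of Siglec1 was the largest in Siglec F-low cells of old mice. These shares are a description, with no test. In young naive cells Siglecf made up 55.2% ± 3.95 (SD, n = 4) of the summed CPM per kilobase of exon of the 6 genes, Siglec1 24.01% ± 3.28, Cd22 8.96% ± 0.462, Siglece 7.41% ± 0.371, Cd33 4.10% ± 0.692 and Siglecg 0.356% ± 0.0739. In old Siglec F-low cells Siglec1 held 37.2% ± 3.11, Siglecf 31.6% ± 3.40, Cd22 17.5% ± 1.39, Cd33 9.52% ± 1.03, Siglece 3.81% ± 0.327 and Siglecg 0.397% ± 0.0570. The place of Cd33 depended on the length used: over the transcript of its longest coding sequence (1.96 kb in place of 7.77 kb of exons in all) it held 13.3% ± 2.02 in young naive cells and 26.9% ± 2.29 in old Siglec F-low cells. By the same length Siglec1 held 29.8% ± 2.74 and Siglecf 24.2% ± 2.92 in old Siglec F-low cells, and Siglecg 0.532% ± 0.0802.

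**Figure D1:**
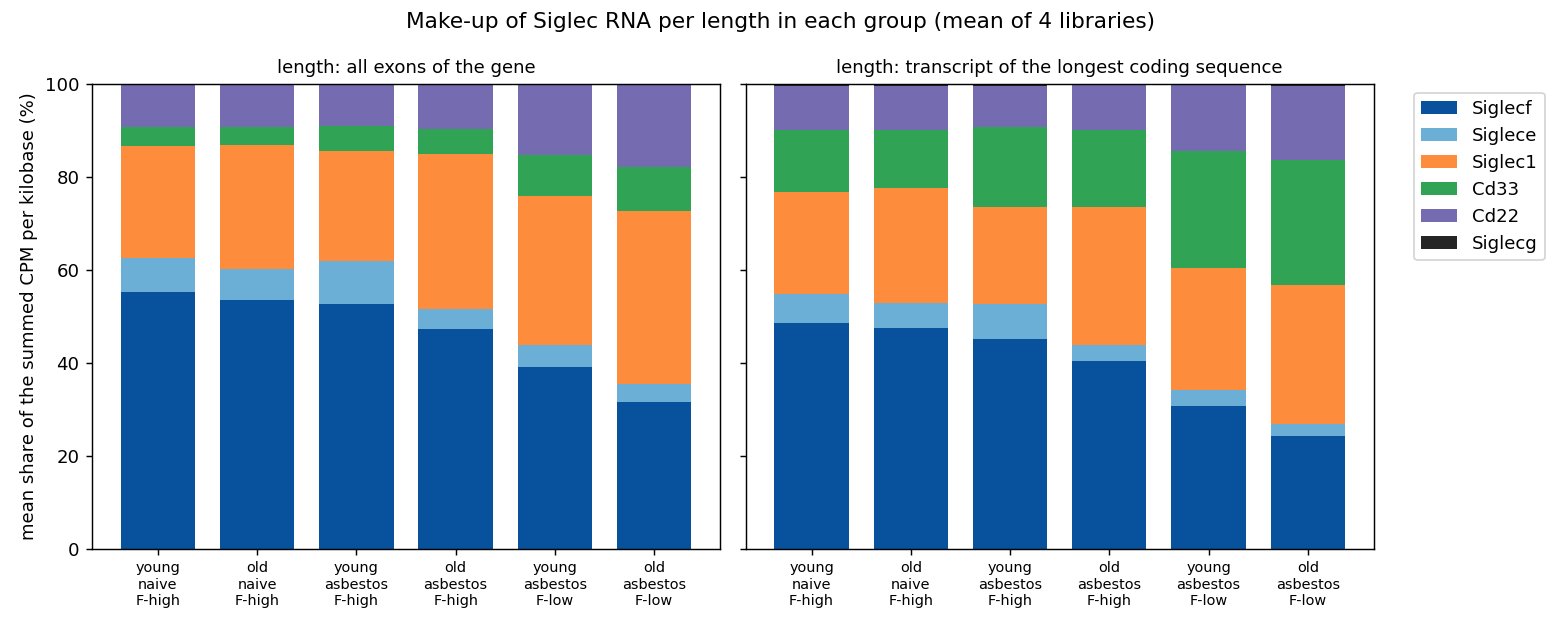
Mean share (%, n = 4 libraries) of each Siglec gene in the summed CPM per kilobase of the 6, by group, with all exons as the length (left) and the transcript of the longest coding sequence (right). With exon length the Siglecf share was 55.2% in young naive cells and 31.6% in old Siglec F-low cells, and the Cd33 share depends on the length chosen; Siglecg is too small to see.

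Siglecf RNA followed the sort on its protein. In young asbestos-exposed mice the 4 Siglec F-high libraries held 455, 476, 312 and 437 CPM and the 4 Siglec F-low libraries 294, 247, 236 and 281 CPM. In old asbestos-exposed mice the Siglec F-high libraries held 454, 472, 372 and 471 CPM and the Siglec F-low libraries 221, 148, 159 and 165 CPM. The sorts did not overlap at either age, and the low value in each Siglec F-high group is replicate 3, the library that stands apart. The log2 difference of low from high was -0.67 ± 0.14 (SE, edgeR, adjusted p = 0.00443) in young and -1.35 ± 0.14 (adjusted p = 3.84e-06) in old mice, and -0.79 ± 0.10 and -1.43 ± 0.10 with 22 libraries. With only the groups compared in the fit, the young difference of -0.67 lost its call (adjusted p = 0.0947). Among the 14 alveolar macrophage markers 4 were lower and 1 higher in young Siglec F-low cells, and 3 lower and 1 higher in old ones; with 22 libraries 4 were lower and 4 higher in young and 5 lower and 2 higher in old ones. The lipid droplet gene Cidec differed by -0.94 ± 0.18 and -0.67 ± 0.18, while Chil3, a chitinase-like protein, was higher in old Siglec F-low cells by 0.97 ± 0.24 (adjusted p = 0.0199) and, with 22 libraries, in young ones by 0.90 ± 0.13. Of all genes tested 4.99% were called in either direction between the young sorts and 4.30% between the old ones (12.0% and 11.6% with 22 libraries). Of 12 markers of monocyte-derived or interstitial macrophages 5 were higher in young and 6 in old Siglec F-low cells, and none lower. C1qa, a chain of complement C1q, was higher by 2.71 ± 0.22 and 3.81 ± 0.25, and the list summed to 1027 to 1336 CPM in Siglec F-low against 492 to 902 CPM in asbestos Siglec F-high libraries. The part of these cell markers in the Siglec values was not tested.

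Across the 6 groups, arranged by mean, Siglecf levels formed 4 steps without overlap between neighbouring steps. They were the 2 naive groups, the 2 asbestos Siglec F-high groups, young Siglec F-low and old Siglec F-low cells. How many other genes have such ranges was not counted. Young naive libraries had 539.7, 614, 489.9 and 493 CPM and old naive libraries 492, 506, 512 and 489 CPM, so that every naive library lay above every asbestos library of the same sort. The gap was narrow, between 489 CPM in the lowest naive and 476 CPM in the highest asbestos library, and the difference was not called. After asbestos Siglecf stood at a log2 change of -0.35 ± 0.14 in young (adjusted p = 0.179) and -0.17 ± 0.14 in old Siglec F-high cells (adjusted p = 0.871). Among Siglec F-high cells the ages overlapped. Among Siglec F-low cells they did not: old cells had 173 ± 32.5 CPM (SD, n = 4) against 265 ± 27.4 in young, a called log2 difference of -0.61 ± 0.14 (adjusted p = 0.0257; -0.60 ± 0.10 and 0.00039 with 22 libraries). In the same comparison 0 of 12 monocyte-derived or interstitial markers were called higher with 24 libraries, 7 being under an unadjusted p of 0.05, and 7 were called with 22. Of all genes 1.29% were called with 24 and 7.21% with 22 libraries, and 1097 of 13467 were under an unadjusted p of 0.05 with 24. The Siglecf call was lost without the filter on low counts (adjusted p = 0.0969) and when 1 of 6 libraries was left out, replicates 1, 2 and 4 of the young and 2, 3 and 4 of the old Siglec F-low group (adjusted p up to 0.131). Whether the gate for Siglec F-low cells was set alike at both ages is not stated in the labels, and its part was not tested. The age difference of the sort difference itself was -0.69 ± 0.19 and was not called (adjusted p = 0.761; with 22 libraries -0.65 ± 0.15, adjusted p = 0.204).

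**Figure D2:**
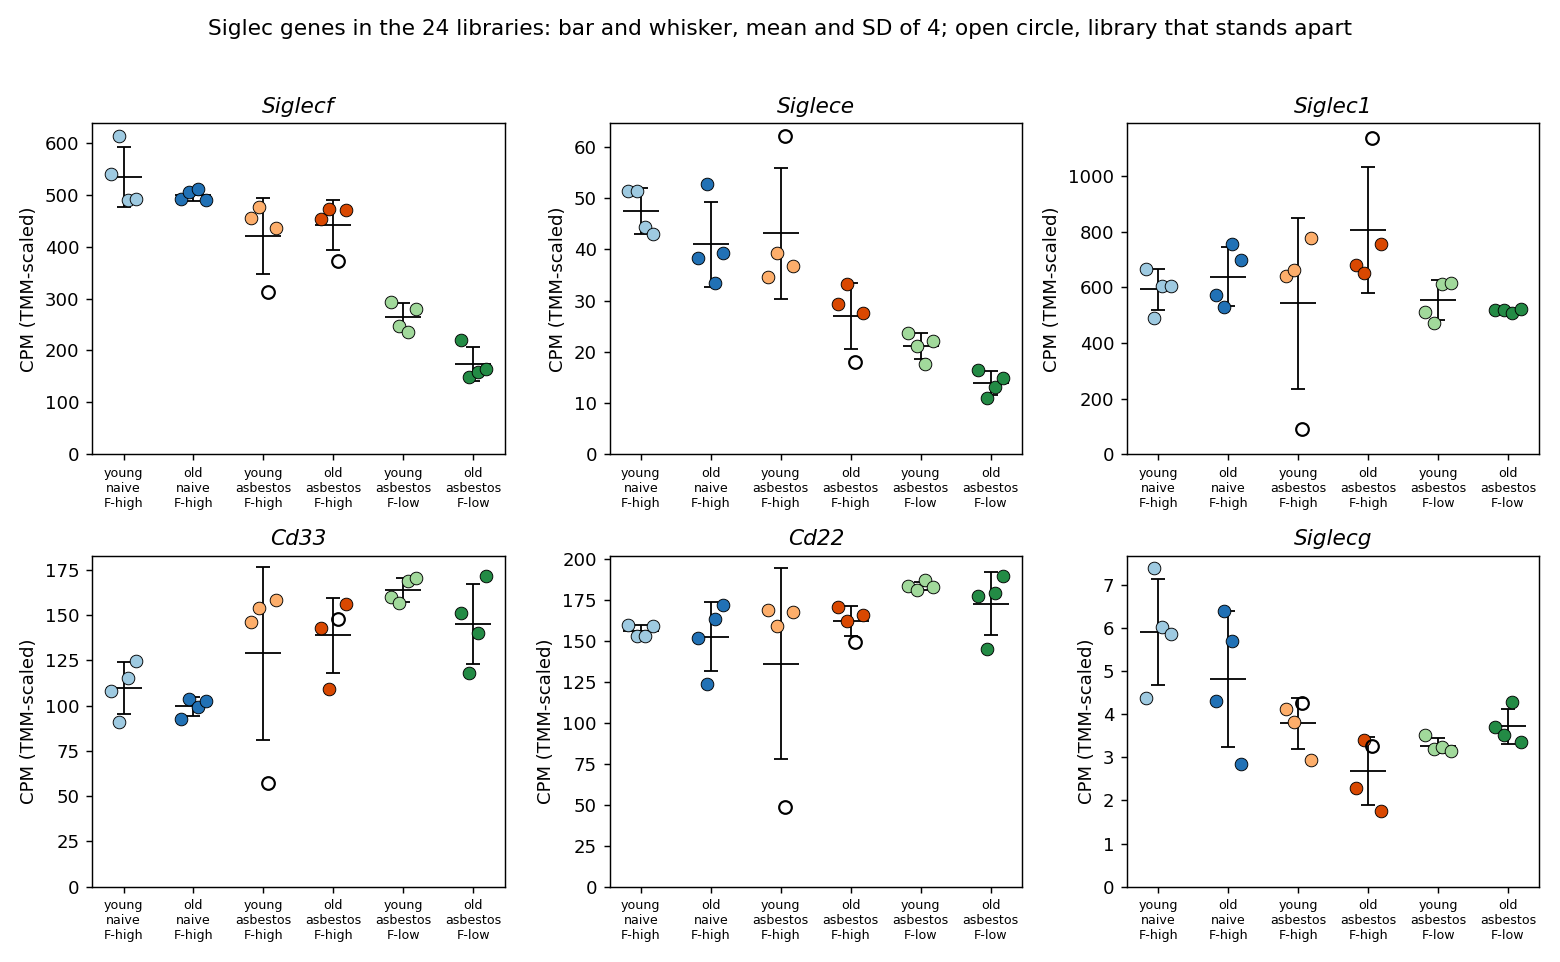
CPM of each Siglec gene (vertical axis from 0) in every library of the 6 groups; the bar and whiskers give the mean and SD of 4 and open circles the 2 libraries that stand apart. Siglecf and Siglece are lowest in old Siglec F-low cells (173 and 13.9 CPM on average), whereas Cd33 and Cd22 are not, and the wide error bars in the young asbestos Siglec F-high group go with 1 open circle.

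Siglecf is left out of the counts that follow, since the cells were sorted on its protein, and 5 genes remain. Between the sorts Siglece was called at both ages in the fits of 24 and of 22 libraries. In young mice 1 of 5 was lower in Siglec F-low cells, where 4.99% of all genes tested were called in either direction (1 of 5 and 12.0% with 22 libraries). In old mice 1 of 5 was lower, against 4.30% of all genes (2 of 5 and 11.6% with 22 libraries, Siglec1 being the other). Age within Siglec F-low cells called 0 of 5, against 1.29% of all genes, with 1 of 5 at an unadjusted p under 0.05 and 0 by DESeq2 (1 of 5, Siglece, and 7.21% with 22 libraries). Over all 13467 genes 1097 had such an unadjusted p with 24 libraries, and DESeq2 called 358. Asbestos against naive called 0 of 5 in young Siglec F-high cells, where 1.90% of genes were called (1 of 5, Cd33, and 5.06% with 22 libraries), and 0 of 5 in old ones, where 0.780% were (2 of 5, Cd33 and Siglecg, and 4.12% with 22 libraries). With 24 libraries 1 and 3 of the 5 had an unadjusted p under 0.05 in these comparisons, as had 2646 and 1151 of all 13467 genes. DESeq2 called 0 and 1 of the 5, and 594 and 248 of all genes. Between ages 0 of 5 were called in naive cells, against 2.03% of genes (8.03% with 22 libraries). With 24 libraries 0 of 5 and 1164 of all 13467 genes had an unadjusted p under 0.05. DESeq2 called 0 of 5 and 474 of all genes. In asbestos Siglec F-high cells 0 of 5 were called between ages, against 4.76% of genes (7.32% with 22 libraries). There 2 of 5 and 3538 of all 13467 genes had an unadjusted p under 0.05 with 24 libraries. DESeq2 called 1 of 5, Siglece, and 1432 of all genes. Neither test of an age difference in a response called any of the 5 with edgeR or DESeq2, and over all genes edgeR called 0% with 24 and 0.0147% with 22 libraries in each. At an unadjusted p under 0.05 these tests held 0 and 1 of the 5 genes, and 1050 and 650 of all 13467 genes, with 24 libraries.

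**Figure D3:**
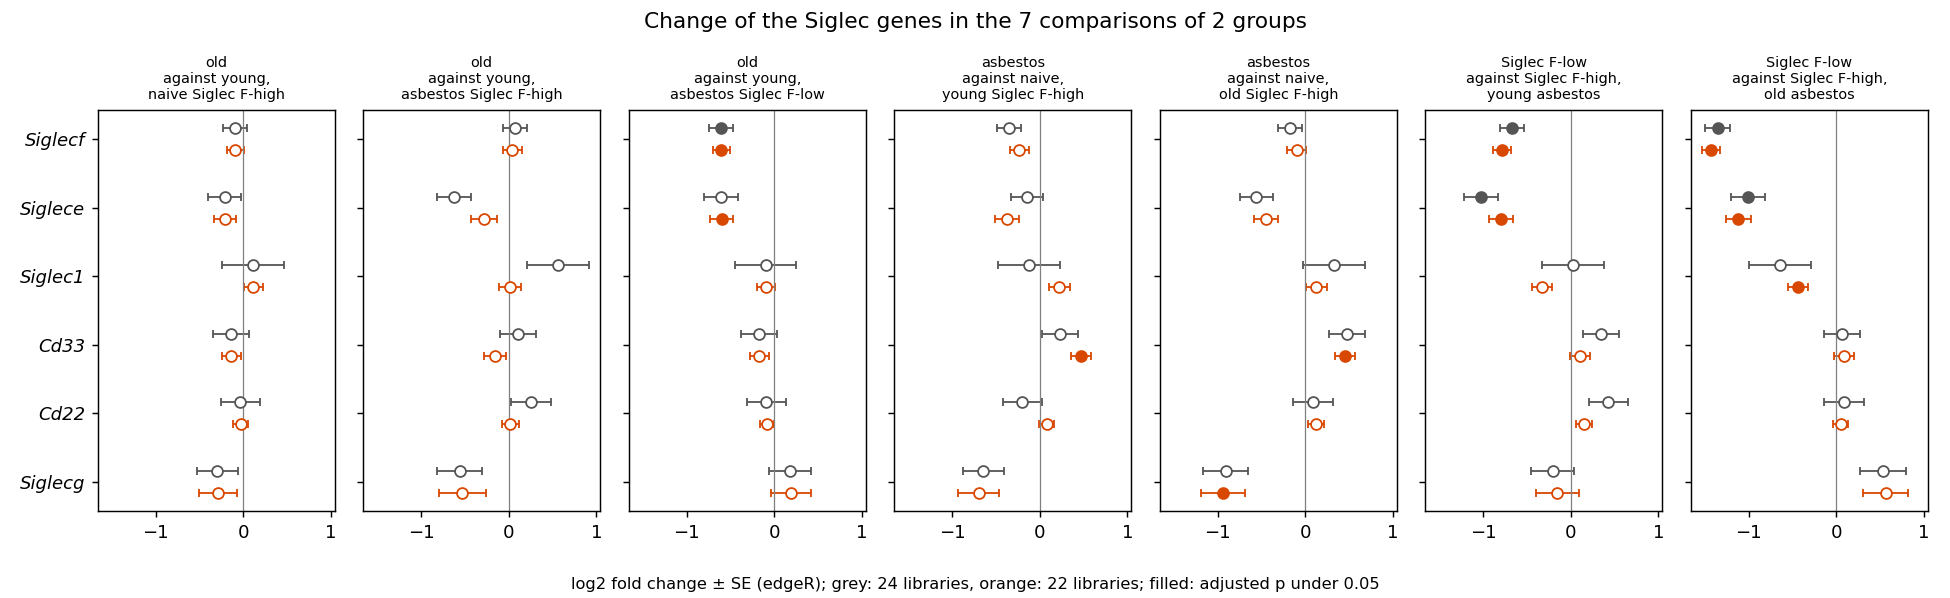
Log2 fold change ± SE (edgeR) of each Siglec gene in the 7 comparisons of 2 groups, with 24 (grey) and 22 libraries (orange); filled points passed an adjusted p of 0.05. Siglecf and Siglece are filled in both fits between the sorts, at both ages.

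Siglece, an inhibitory Siglec of myeloid cells, was lower in Siglec F-low cells at both ages, in both fits. Young Siglec F-high libraries of asbestos-exposed mice held 34.6, 39.2, 62.1 and 36.7 CPM and young Siglec F-low libraries 23.6, 21.2, 17.6 and 22.2 CPM. Old Siglec F-high libraries held 29.3, 33.2, 18.0 and 27.6 CPM and old Siglec F-low libraries 16.4, 11.02, 13.1 and 14.95 CPM. Neither pair overlapped, although both replicates 3 lay far from their groups, one above and one below. Siglece fell by 1.02 ± 0.19 on the log2 scale in young (adjusted p = 0.00155) and by 1.01 ± 0.19 in old mice (adjusted p = 0.00305), and by 0.80 ± 0.14 and 1.12 ± 0.14 with 22 libraries. Both calls held when each of the 24 libraries was left out in turn; the young one was lost with only the groups compared in the fit (adjusted p = 0.075). Genes of neutrophils, which also carry Siglece, summed to 80.02 to 87.8 CPM in young Siglec F-low and 49.8 to 93.5 CPM in young asbestos Siglec F-high libraries, and to 74.0 to 97.0 and 34.3 to 75.7 CPM in old ones. Of the 8 genes in this sum 2 averaged over 10 CPM and 2 stayed below 1 CPM in every library. The part of neutrophils in the Siglece values was not tested.

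In naive Siglec F-high cells Siglece stood at 51.4, 51.5, 44.3 and 42.9 CPM in young and 38.3, 52.9, 33.5 and 39.4 CPM in old mice, ranges that overlap. After asbestos the old Siglec F-high libraries all lay below the naive ones, with a log2 change of -0.56 ± 0.19 that was not called (adjusted p = 0.267; -0.45 ± 0.14 and 0.0689 with 22 libraries). Old Siglec F-low cells had 13.9 ± 2.33 CPM against 21.2 ± 2.54 in young ones, without overlap: -0.61 ± 0.19 with an adjusted p of 0.165 over 24 libraries, and -0.60 ± 0.13, called, at 0.00711 over 22. Among asbestos Siglec F-high cells the age difference of -0.63 ± 0.19 (adjusted p = 0.0587) was -0.28 ± 0.15 with 22 libraries (adjusted p = 0.283), so its size rests on the 2 libraries that stand apart.

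Siglece was also the gene whose pattern over the 22 libraries was most like that of Siglecf among the tested genes with a given name (Pearson's r of log2 CPM 0.958, Spearman's rho 0.913, r over 24 libraries 0.854). The libraries share the sorts and conditions, so this is a description of how the 2 genes vary together over the groups. In the 22 libraries there were 5.86 to 10.5 Siglece counts per 100 Siglecf counts, while Siglecf itself ran from 148 to 614 CPM. The ratio was 8.04 ± 0.773 (SD, n = 4) in old Siglec F-low cells and 6.44 ± 0.583 (n = 3) in old asbestos Siglec F-high cells, and in young replicate 3 of the asbestos Siglec F-high group, which stands apart, it was 19.9. Next in likeness to Siglecf came Rps6ka1, a ribosomal S6 kinase (r = 0.953, rho = 0.903), and Jup, the junction protein plakoglobin (r = 0.951, rho = 0.863); over 24 libraries their r was 0.536 and 0.868. Siglece itself was most like Klra2, a Ly49 family receptor (r = 0.971, rho = 0.965), and Gmcl1 (r = 0.967, rho = 0.953), with Siglecf the third; over 24 libraries the first 2 stood at 0.946 and 0.825.

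**Figure D4:**
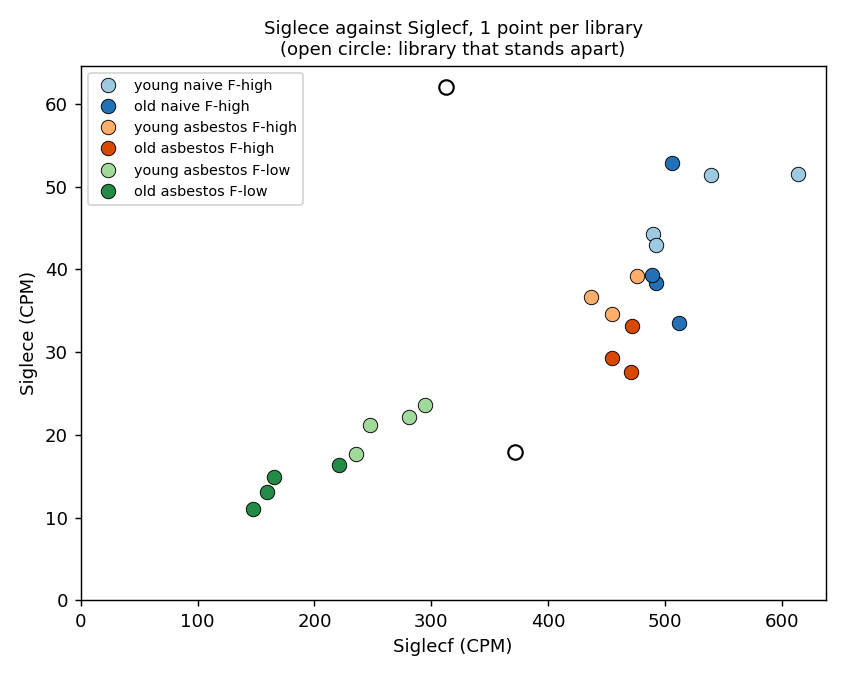
Siglece against Siglecf (both in CPM), 1 point per library, coloured by group; open circles are the 2 libraries that stand apart. The Siglec F-low libraries of old mice lie nearest the origin, and over the 22 other libraries r was 0.958 on the log2 scale.

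Since the levels of Siglecf and Siglece vary together over these libraries, the 150 bases ahead of their start sites are shown for comparison (RefSeq, GRCm38.p6; 5′ to 3′ on the gene's strand, chr7:43351191-43351340 plus strand for Siglecf and chr7:43660162-43660311 minus strand for Siglece). Capitals mark the core motif of PU.1 (GAGGAA, read on either strand), the factor best known for driving macrophage genes.
Siglecf: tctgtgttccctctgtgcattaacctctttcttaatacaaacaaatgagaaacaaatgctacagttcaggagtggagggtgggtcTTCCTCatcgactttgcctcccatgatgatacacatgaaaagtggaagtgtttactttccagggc
Siglece: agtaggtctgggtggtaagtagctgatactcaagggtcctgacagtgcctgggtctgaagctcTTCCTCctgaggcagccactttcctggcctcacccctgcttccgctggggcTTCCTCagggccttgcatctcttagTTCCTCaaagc
Siglecf held the core once, beginning 65 bases ahead of the start, and Siglece 3 times, beginning 87, 36 and 11 bases ahead, each time on the opposite strand. Of 32851 RefSeq promoter windows of 300 bases (250 ahead of the start and 50 from it on), 28.3% held the core at least once and 0.685% at least 3 times. Windows were found for 5 of the 6 genes, not for Siglec1. Siglecg has 2 windows, with start sites at 43408239 and 43408280. The first held the core farther out, at 241 and 212 bases ahead of the start, and the second held none. Cd33 held it 226 bases ahead of the start, and the Cd22 window held none. The interferon response core (GAAANNGAAA, in 3.44% of all windows) and the E-box CACGTG (7.15%) were in none of the windows of the 5 genes. A match of letters is a description and does not show that a factor binds there.

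Siglec1, the adhesion receptor, was called between the sorts in old mice only in the fit of 22 libraries and in some other settings, not in that of 24. Old Siglec F-high libraries of asbestos-exposed mice had 682, 651, 1138 and 755 CPM and old Siglec F-low libraries 519, 517, 509 and 523 CPM, and the sorts did not overlap. The log2 difference was -0.64 ± 0.35 with 24 libraries (adjusted p = 0.417) and -0.43 ± 0.12 with 22 (adjusted p = 0.0154). Young Siglec F-high libraries had 641, 664, 90.1 and 778 CPM and young Siglec F-low ones 513, 474, 613 and 616 CPM. Without the 90.1 CPM of replicate 3 these sorts did not overlap either. The young log2 difference turned from 0.03 ± 0.35 to -0.33 ± 0.12 with 22 libraries and was called in neither (adjusted p = 0.979 and 0.0717).

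Naive cells held 667, 492, 605 and 606 CPM of Siglec1 in young and 573, 530.4, 755.7 and 697 CPM in old mice, and no comparison of age or of asbestos called it in either fit. Siglec1 is known as an interferon-induced gene. Of 12 genes of the type I interferon response, 11 were tested, and their summed level lay between 86.2 and 128 CPM in every library. After asbestos 0 of 11 were called by edgeR in either fit (at an unadjusted p under 0.05, 5 in young and 0 in old cells with 24 libraries), with a median log2 change of 1.30 in young and 0.34 in old cells with 24 and of 0.36 and 0.45 with 22 libraries. Over all 13467 genes 2646 in young and 1151 in old cells had an unadjusted p under 0.05 after asbestos with 24 libraries. Between the sorts Oas1a, a sensor of viral RNA, was higher in young Siglec F-low cells (0.60 ± 0.16, adjusted p = 0.0283). With 22 libraries Oas1a was called higher in young (0.52 ± 0.15, adjusted p = 0.0200) and in old Siglec F-low cells (0.49 ± 0.15, adjusted p = 0.0287). In that fit Usp18 was also higher in old Siglec F-low cells (1.60 ± 0.47, adjusted p = 0.0279). Among the genes most like Siglec1 over 22 libraries were Sort1, the sorting receptor sortilin (r = 0.846, rho = 0.850), and Iqgap1, a scaffold protein (r = 0.845, rho = 0.793), with r of 0.961 and 0.834 over 24 libraries.

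Cd33 was higher after asbestos at both ages in the 22 libraries. Young naive libraries held 108, 91.0, 115 and 125 CPM and young asbestos Siglec F-high libraries 146, 154, 57.3 and 158 CPM. Old naive libraries held 92.4, 103, 99.5 and 103 CPM and old asbestos Siglec F-high libraries 143, 109, 148 and 156 CPM. The old groups did not overlap, and the young ones overlapped only through replicate 3. With 22 libraries Cd33 rose by 0.47 ± 0.12 in young (adjusted p = 0.0173) and by 0.45 ± 0.12 in old cells (adjusted p = 0.0273); with 24 libraries the log2 changes were 0.23 ± 0.21 (adjusted p = 0.54) and 0.48 ± 0.21 (adjusted p = 0.496). Leaving out the young replicate 3 alone was enough for both calls (adjusted p = 0.0278 and 0.0225).

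Siglec F-low cells had Cd33 at 160.0, 157, 169 and 170.2 CPM in young and 151, 118, 139.8 and 171 CPM in old mice. Against the matching Siglec F-high cells the log2 differences with 22 libraries were 0.10 ± 0.12 (adjusted p = 0.636) and 0.09 ± 0.12 (adjusted p = 0.729), and neither was called with 24. In both sorts of asbestos-exposed mice each library held more Cd33 than the naive mean of its age (109.8 CPM in young, 99.5 CPM in old), apart from the young Siglec F-high replicate 3. Over the 22 libraries it varied against Siglecf (r = -0.544) and Siglece (r = -0.565) and with Cd22 (r = 0.687). The genes most like Cd33 were Gnpda1, a glucosamine-6-phosphate deaminase (r = 0.919, rho = 0.896), Dip2a (r = 0.907, rho = 0.871) and Atp2a2, a calcium pump of the endoplasmic reticulum (r = 0.900, rho = 0.875), with r of 0.849, 0.871 and 0.926 over 24 libraries.

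Cd22, an inhibitory co-receptor of B cells, was not called in any comparison in either fit. It held 159.6, 153, 153 and 159 CPM in young naive, 152, 124, 163 and 172 CPM in old naive, 169, 159, 48.8 and 168 CPM in young asbestos Siglec F-high and 171, 162, 149 and 166 CPM in old asbestos Siglec F-high libraries. In Siglec F-low cells it held 184, 181, 187 and 183 CPM in young and 177, 145, 179 and 189.7 CPM in old mice. The young sorts did not overlap, with a log2 difference of 0.43 ± 0.23 over 24 (adjusted p = 0.282) and 0.15 ± 0.09 over 22 libraries (adjusted p = 0.309), the size of which rests on replicate 3. With 24 libraries the asbestos response of young cells had a 95% interval of -0.64 to 0.25 on the log2 scale. That of old cells ran from -0.36 to 0.53. With 22 libraries the log2 changes were 0.08 ± 0.09 in young and 0.13 ± 0.09 in old cells. The genes most like Cd22 were Gpr89 (r = 0.871, rho = 0.825), Slc39a13, a zinc transporter (r = 0.843, rho = 0.840), and Cln8 (r = 0.836, rho = 0.902), with r of 0.482, -0.05 and 0.613 over 24 libraries, so that the likeness depends on leaving 2 libraries out.

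Siglecg was the scarcest of the 6, with 4 to 124 counts in a library. Young naive libraries held 4.38, 7.38, 6.03 and 5.85 CPM and old naive libraries 4.31, 6.398, 5.69 and 2.84 CPM. After asbestos the Siglec F-high libraries held 4.13, 3.83, 4.25 and 2.93 CPM in young and 2.29, 3.40, 3.27 and 1.75 CPM in old mice, without overlap with naive cells in young and with overlap in old mice. The change in old cells was -0.91 ± 0.26 (adjusted p = 0.133) and was called with 22 libraries (-0.94 ± 0.25, adjusted p = 0.035). That in young cells was -0.64 ± 0.24 (adjusted p = 0.156; -0.70 ± 0.24 and 0.0961 with 22). Siglec F-low cells held 3.51, 3.19, 3.25 and 3.14 CPM in young and 3.71, 3.52, 4.28 and 3.34 CPM in old mice, and neither sort difference was called.

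Some B cell genes were also lower after asbestos, in young cells with 24 libraries and at both ages with 22. All 12 of the B cell list were tested, and 3 of 12 were lower in young Siglec F-high cells (8 of 12 with 22 libraries) and 0 of 12 in old ones (4 of 12 with 22; 10 of 12 at an unadjusted p under 0.05 with 24), where 1.90% and 0.780% of all genes were called with 24 and 5.06% and 4.12% with 22 libraries, with a median log2 change of -1.28 and -1.15 against -0.01 and 0.01 over all genes. With 24 libraries 1151 of all 13467 genes had an unadjusted p under 0.05 in old cells. Cd79a, a signalling chain of the B cell receptor, fell by 1.39 ± 0.36 in young cells (adjusted p = 0.0488). The summed level of the list was 82.9 to 119 CPM in young naive and 32.5 to 57.4 CPM in young asbestos Siglec F-high libraries, and 154.9 to 300.4 CPM and 39.7 to 111 CPM in old ones; none of the 12 was at 0 in every library of a group. The higher sums of old mice go with Ighm, the heavy chain of IgM, which was higher in old than in young naive cells by 2.25 ± 0.38 (adjusted p = 0.000871). In bulk samples fewer cells of a type and less RNA per cell cannot be told apart. The part of these B cell genes in the Siglecg values was not tested. The genes most like Siglecg over 22 libraries were Btla, an inhibitory receptor of lymphocytes (r = 0.857, rho = 0.845), H2-Ob, a chain of the class II modulator H2-O (r = 0.849, rho = 0.748), and Ralgps2 (r = 0.848, rho = 0.732), with r of 0.734, 0.800 and 0.424 over 24 libraries.

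Cd79a ran from 7.63 to 14.4 CPM in young naive libraries, where Cd22 held 153 to 159.6 CPM. In replicates 1, 2 and 4 of the young asbestos Siglec F-high group Cd79a ran from 2.87 to 6.71 CPM and Cd22 from 159 to 169 CPM. Replicate 3, which stands apart, was the lowest of all libraries in both, at 1.55 and 48.8 CPM. In Siglec F-low cells Cd22 reached 189.7 CPM with Cd79a at 2.80 CPM in the same library. Cd22 stood at 28.8 to 37.6 CPM per kilobase in old Siglec F-low cells, against 0.696 to 0.891 for Siglecg.

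**Figure D5:**
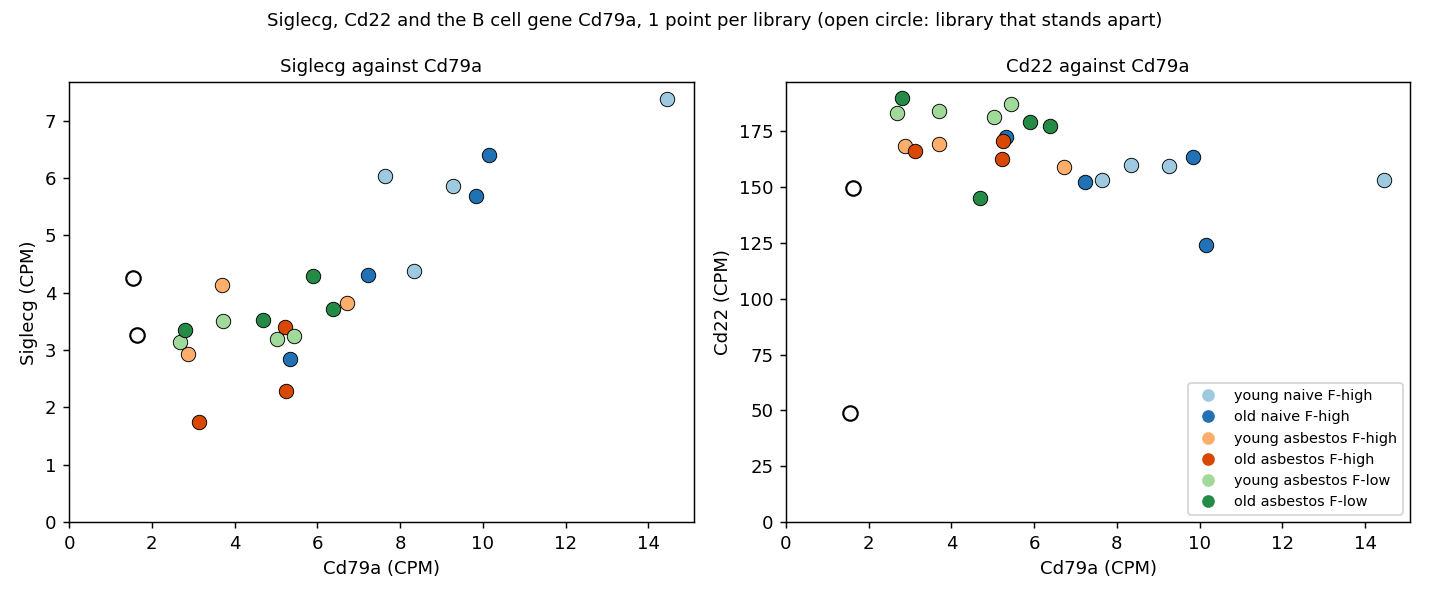
Siglecg (left) and Cd22 (right) against the B cell gene Cd79a, all in CPM, 1 point per library coloured by group, open circles for the 2 libraries that stand apart. The young naive libraries lie to the right of every asbestos library, with Cd79a at 7.63 CPM or more, and hold up to 7.38 CPM of Siglecg, whereas Cd22 lies between 124 and 189.7 CPM in 23 libraries and at 48.8 CPM in the other.

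3 further Siglec genes were looked up. Mag, the myelin-associated glycoprotein and a neighbour of Cd22 on the same strand, held 27.2 ± 5.39 to 35.2 ± 0.851 CPM (SD, n = 4) over the groups and was called in no comparison, although the sorts did not overlap at either age. There were 17.03 to 27.5 Mag counts per 100 Cd22 counts in the 22 libraries. Siglech, known from plasmacytoid dendritic cells, reached 0.695 CPM and had no count in 5 libraries, and Siglec15 reached 0.817 CPM and had none in 13; neither had enough reads to be tested over 24 libraries.

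Genes around the Siglecs showed a few changes between the sorts. Sialyltransferases add the sialic acids that Siglecs read. Of 20 such genes 12 were tested, and 3 of 12 were higher in Siglec F-low cells at each age in both fits, none lower. Of all genes 4.99% in young and 4.30% in old mice were called in either direction (12.0% and 11.6% with 22 libraries). The median log2 difference of the 12 with 24 libraries was 0.27 in young and 0.20 in old mice against 0.00 over all genes. In the other 5 comparisons of 2 groups none was called with 24 libraries. With 22, St6galnac4 was higher in old than in young asbestos Siglec F-high cells (0.40 ± 0.12) and after asbestos in old cells (0.48 ± 0.11), St3gal4 was higher in old than in young Siglec F-low cells (0.22 ± 0.07), and St3gal6 fell after asbestos in old cells by 1.34 ± 0.38. St8sia4, which builds polysialic acid, ranged from 8.23 to 13.9 CPM in young Siglec F-high and from 20.3 to 27.4 CPM in young Siglec F-low cells. It rose by 1.13 ± 0.25 (adjusted p = 0.00876) in young and by 1.89 ± 0.28 (adjusted p = 0.000208) in old mice. St6galnac4, which adds sialic acid to O-linked glycans, rose by 0.94 ± 0.17 and 0.73 ± 0.17, and St6galnac6, which acts on glycolipids, by 0.52 ± 0.14 and 0.91 ± 0.15. Monocyte-derived and interstitial markers were higher in the same comparisons, as given with Siglecf, and their part in these values was not tested.

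Genes that make or remove sialic acid were called in no comparison of 24 libraries. Of 8 genes of synthesis and activation 7 were tested, and 1 to 4 of the 7 had an unadjusted p under 0.05 in a comparison of 2 groups. Of all 13467 genes 1097 to 3538 had such a p in these comparisons. With 22, Cmah, which turns the human type of sialic acid into the mouse type, fell after asbestos by 1.37 ± 0.36 in young (adjusted p = 0.0248) and by 1.30 ± 0.37 in old Siglec F-high cells (adjusted p = 0.0469), and Renbp, which diverts the precursor sugar, was higher in old Siglec F-high cells (0.37 ± 0.09 in naive, 0.42 ± 0.10 in asbestos-exposed mice). Of 5 genes of the sialidases and their partner 3 were tested, of which 0 or 1 had an unadjusted p under 0.05. With 22 libraries Neu1, the lysosomal sialidase, and its protective protein Ctsa were higher in young Siglec F-low than Siglec F-high cells (0.21 ± 0.07 and 0.30 ± 0.08).

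Of 10 genes that signal with or below Siglecs, all tested, 1 was called between the sorts at each age with 24 libraries. Of all genes 4.99% in young and 4.30% in old mice were called there. The 1 gene was Socs3, a suppressor of cytokine signalling. It rose from 25.5 to 33.4 CPM in young Siglec F-high to 38.4 to 78.4 CPM in Siglec F-low libraries (1.10 ± 0.20, adjusted p = 0.00155) and by 1.69 ± 0.21 in old mice (adjusted p = 3.03e-05). Ptpn6, the phosphatase that inhibitory Siglecs recruit, held 321 ± 14.01 to 384 ± 19.4 CPM (SD, n = 4) over the groups and was not called. With 22 libraries Lyn, the kinase that phosphorylates their motifs, was lower in old than in young Siglec F-low cells (-0.28 ± 0.06, adjusted p = 0.00698) and Socs3 higher (0.77 ± 0.19, adjusted p = 0.0142), and Lyn was also lower in Siglec F-low than in Siglec F-high cells of old mice (-0.23 ± 0.07, adjusted p = 0.0265). Inpp5d in that fit was higher after asbestos in young Siglec F-high cells (0.31 ± 0.08, adjusted p = 0.0177). It was lower in old than in young asbestos Siglec F-high cells (-0.27 ± 0.08, adjusted p = 0.0473). Among 5 sialylated partners of Siglecs, all tested, Cd24a, the partner of Siglecg, was higher in old than in young naive cells, at 202 to 262 against 102 to 162 CPM (0.78 ± 0.20, adjusted p = 0.0381), and in old asbestos Siglec F-high cells (0.69 ± 0.20, adjusted p = 0.047). Ptprc, or CD45, a partner of Cd22, was lower in Siglec F-low than in Siglec F-high cells of old mice (-0.37 ± 0.10, adjusted p = 0.0375) and, with 22 libraries, at both ages (-0.24 ± 0.06 in young, -0.25 ± 0.06 in old mice).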

How the data were processed

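The authors deposited raw read counts per gene for 24 libraries; per the submitters' processing notes the tools were bcl2fastq 2.19.1, FastQC, Trimmomatic 0.36, STAR 2.6.0 and HTSeq 0.11.2, with build mm10. Libraries were made from 30 ng RNA with polyA selection, per the labels' protocols. Symbols were matched for 42462 of 43430 gene IDs, with positions from GENCODE M21.

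Counts were tested with edgeR 4.0.16 (R 4.3.3; quasi-likelihood test, TMM scaling, filterByExpr with a minimum count of 10 and total of 15, 13467 genes), 1 term per group, all 24 libraries, Benjamini-Hochberg adjustment over all genes of a comparison, threshold 0.05. The fit over 22 libraries tested 13629 genes. Intervals are 95%. Alternatives used DESeq2 1.42.0 and limma 3.58.1 (voom), RLE scaling, no filter, only the groups compared, replicate numbers as a block and each library left out. The test was checked on simulated counts with the spread of the 22 libraries, so the check does not cover the effect of the 2 that stand apart. Levels are CPM; per-length levels divide by exon length. Likeness is Pearson's r of log2 CPM (prior count 2), ranked among genes with a given name (not a Gm number, Rik clone or accession).

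The members and gene lists were chosen with earlier results of these data known. Named genes were the members, 3 other Siglec genes, at most the 3 called genes of smallest p per list and comparison, and the 3 genes most like each member; some of these are not reported here. Ptpn6 was named outside that rule, after its values were seen. Replicate numbers are not said to mark shared animals; deviations of same-numbered libraries correlated over 0.1 in every pair only between the old asbestos sorts with 22 libraries (0.150 to 0.205, 3 pairs). T cell genes summed to 4.86 to 22.2 CPM and plasmacytoid dendritic cell genes to 126 to 213 CPM. Of the 6 genes of the latter list 2 averaged over 10 CPM, and 1 stayed below 1 CPM in every library. No column of values lacked a sample.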

Additional observations from a re-analysis of the deposited data

Results flagged for a closer look

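In 3 of the 36 sets of 4 libraries (6 genes in 6 groups) 1 library lay far from the other 3 by Dixon's criterion at its 95% critical value, which chance meets in about 1 in 20 sets. All 3 are replicate 3 of the young asbestos Siglec F-high group, the library with 12528 detected genes. Siglece stood at 62.1 CPM there, above 34.6 to 39.2 CPM in the other 3 libraries. Cd33 stood at 57.3 CPM, below 146 to 158 CPM, and Cd22 at 48.8 CPM, below 159 to 169 CPM.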

How the results depend on the processing

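Of 54 changes (6 genes in 9 comparisons), no called change reversed. Of 486 values under other settings, 429 kept direction and side of the threshold, 26 gained and 3 lost a call, and 28 reversed, none of them called with 24 libraries; of 1296 values from fits without 1 library the numbers were 1263, 9, 6 and 18. The reversals came with the 2 libraries that stand apart left out (alone, with a replicate block or with only the groups compared) or in the voom fit with sample weights; the fit of 22 libraries with only the groups compared, and the coding-transcript length, were chosen after seeing the data. In the order 22 libraries, voom, replicate block with 22 libraries and 22 libraries with only the groups compared, Cd33 between ages in asbestos Siglec F-high cells was -0.16, -0.17, -0.17 and -0.17; after asbestos in young cells Siglec1 was 0.22, 0.18, 0.26 and 0.21 and Cd22 0.078, 0.064, 0.091 and 0.069; Siglec1 between the young sorts was -0.33, -0.25, -0.37 (adjusted p = 0.00578, a call) and -0.33; the age difference of the asbestos response was -0.098, -0.044, -0.089 and -0.10 for Siglec1; that of the sort difference was -0.32, -0.21, -0.31 and -0.29 for Siglece. For Cd33 the first was -0.019, -0.043 and -0.019 without voom and the second 0.0097 in the last setting. The causes were not tested.

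Members called, Siglecf included, between ages in Siglec F-low cells were 1 with 24 libraries, 2 with 22 libraries, voom, the replicate block with 22, and only the groups compared (24 or 22 libraries), and 0 without the filter; in asbestos Siglec F-high cells 1 with DESeq2. After asbestos 0 became 1 (22 libraries and 22 with only the groups compared) and 2 (voom and block with 22) in young, and 2 (22 libraries), 1 (DESeq2 and 22 with only the groups compared) and 3 (voom and block with 22) in old cells; between the young sorts 2 became 0 with only the groups compared. Over all genes, calls between ages in Siglec F-low cells were 174 with 24 libraries, 983 with 22 and 1285 with voom. With only the groups compared (24 libraries) they were 798. Between ages in asbestos Siglec F-high cells they were 641 with 24 libraries and 1432 with DESeq2. After asbestos 24 libraries, 22 and voom gave 256, 690 and 1895 in young and 105, 562 and 687 in old cells. DESeq2 gave 248 in old cells. Between the young sorts all 24 gave 672 and only the groups compared 181. The replicate block with 24 libraries changed no count of members (2 called between the sorts at each age). With 22 libraries the old sorts kept 3. Only there did every same-numbered pair correlate over 0.1, and with 24 libraries the lowest was 0.0733. Pairs of different numbers were not set beside them, so this does not show that the numbers mark a pairing.

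Leaving out 1 library gave 0 to 1 (ages, asbestos Siglec F-high), 0 to 2 (ages, Siglec F-low), 0 to 1 and 0 to 2 (asbestos, young and old) members called. Signs turned for Cd22 (-0.092 to 0.058 between ages in naive, -0.026 to 0.375 in asbestos Siglec F-high cells, -0.32 to 0.082 and -0.0025 to 0.15 after asbestos in young and old), Siglecf (-0.042 to 0.16) and Cd33 (-0.15 to 0.22) between ages in asbestos Siglec F-high cells, Siglec1 after asbestos in young cells (-0.35 to 0.23) and between the young sorts (-0.33 to 0.26), Cd33 between the old sorts (-0.025 to 0.16), and the age differences of Cd33 (-0.0029 to 0.36, asbestos) and Siglece (-0.24 to 0.13, sort).

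Over all genes, called counts under the other settings ran from 236 to 1870, 17 to 1896 and 128 to 1285 between ages (naive, asbestos Siglec F-high, Siglec F-low), 10 to 1895 and 51 to 725 after asbestos (young, old), 181 to 2440 and 431 to 2089 between the sorts (young, old), and 0 to 3 and 0 to 15 for the 2 age differences. Counting error limits Siglecg, with 4 counts in the shallowest library.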
